A study of Mus musculus with 6 samples.

Results

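The genes described here encode the constitutive subunits, activators and assembly factors of the proteasome, the protease complex that degrades proteins tagged with ubiquitin. Members were the genes whose platform symbol begins with Psma, Psmb, Psmc, Psmd, Psme, Psmf or Psmg followed by a number, without the immunoproteasome genes Psmb8, Psmb9 and Psmb10. They came to 44 genes, each on 1 probe set, of 19505 named genes on 19572 probe sets, while 2634 further probe sets of the 22206 on the array carried no symbol. By role, 15 belonged to the 20S core, 17 to the 19S cap and 12 to the activators and assembly factors. The core gene Psmb5 was not analysed here.

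The ID8 line, ovarian cancer cells of the mouse grown in culture, was starved of serum for 24 h. Cells of the CCL6 group then received recombinant CCL6, a macrophage chemokine that binds the receptor CCR1, at 200 ng/mL for 6 h, and the unstimulated group received none. Each group held 3 biological replicates of this single line, each hybridised to 1 Clariom S mouse array. The study used the arrays to ask which pathways respond to CCL6 in migrating cancer cells.

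The 20S core is a barrel of stacked rings, in which alpha subunits gate the entrance and beta subunits carry the proteolytic sites inside. A 19S cap sits on an end of the barrel, where its lid and base bind ubiquitin chains, remove them and unfold the substrate with a ring of ATPases. Alternative activators can take the place of the cap, and dedicated chaperones build the rings. In mammalian cells many of these genes are induced together by the transcription factor NFE2L1 when proteasome activity drops.

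Values are on a log2 scale as deposited, so that a difference of 1 is a doubling. Array medians lay between 5.42 and 5.49. A probe set was called above background when its mean in at least 1 group exceeded 4.85, the 95th percentile of 1450 receptor probe sets of smell and taste. That held for 56.5% of all probe sets. Of the epithelial markers, Krt7, Krt8, Krt18, Krt19 and Cdh1 lay above it and Epcam did not, and 3 of 3 mesothelial markers did. Endothelial markers were above background in 0 of 3 cases and macrophage markers in 1 of 6, Cd14, and the mean of the macrophage list ran from 4.26 to 4.35 in CCL6 cells and from 4.07 to 4.39 in unstimulated cells. Proliferation genes varied widely between arrays within each group. The mean log2 value of 16 such genes was 13.09, 13.52 and 11.78 in CCL6 replicates 1 to 3, against 11.94, 12.20 and 13.37 in unstimulated replicates 1 to 3.

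Of the 44 proteasome genes, 41 lay above background, and all 41 did so in both group means. Their means over the 6 arrays ran from 7.42 to 15.14, which cannot be ranked between genes because each probe set has its own affinity. The 3 genes not above background included Psma8, the alpha subunit of the testis proteasome, and Psmb11, the beta subunit of the thymus. Psma8 read 4.30, 3.38 and 3.19 in CCL6 cells and 2.91, 3.50 and 3.16 in unstimulated cells. Psmb11 read 3.49, 3.88 and 3.56 in CCL6 cells and 3.28, 3.65 and 3.39 in unstimulated cells. Both are known for a single tissue, and neither had signal above background in ID8 cells. The third was Psmg3, a chaperone of ring assembly, at 4.36, 4.10 and 4.33 in CCL6 cells and 4.30, 4.52 and 4.07 in unstimulated cells. The groups overlapped for all 3 genes.

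None of the 41 genes passed the limma test at an adjusted p of 0.05, nor did any other probe set (0%), and 1 of the 41 had an unadjusted p under 0.05. The differences were small. The largest was 1.45-fold, and 26 of the 41 genes differed by less than 0.2 on the log2 scale in either direction. Their direction was uneven. The CCL6 mean was the lower of the 2 in 29 of 41 genes (70.7%) and in 48.6% of the probe sets above background. The median log2 difference, CCL6 minus unstimulated, was -0.12 for the proteasome genes and 0.01 for the probe sets above background. In 7 of 41 genes (17.1%) every CCL6 array lay below every unstimulated array, which was so in 3.97% of the probe sets above background. The opposite order was seen in 0 of 41, against 3.88% of the probe sets above background. At an unadjusted p under 0.05 there was 1 lower gene, Psmc6, and 0 higher, where 1.81% and 1.28% of all probe sets were lower and higher at that level. These genes were measured on the same 6 arrays and may vary together, so the counts are a description. The 95% interval of the difference contained 0 in 40 of 41 genes, and in 33 it lay inside a 2-fold change in both directions. In a culture, less RNA per cell and fewer cells of a kind cannot be told apart.

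**Figure D1:**
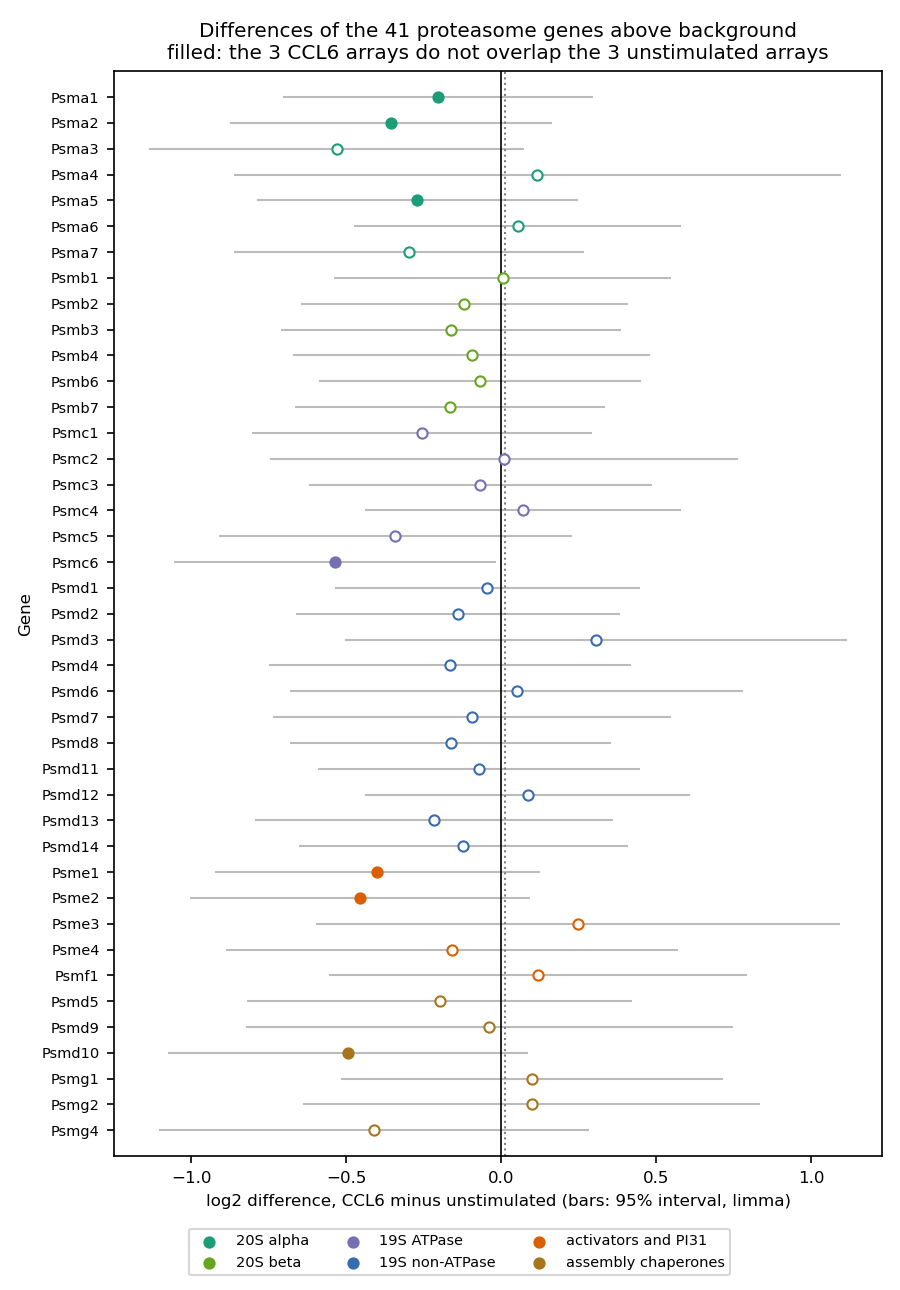
Log2 difference, CCL6 minus unstimulated, of the 41 proteasome genes above background, with 95% intervals from limma; filled points mark genes whose 3 CCL6 arrays and 3 unstimulated arrays do not overlap, and the dotted line is the median over all probe sets above background (0.01). The points lie between -0.53 and 0.31, 29 of 41 below 0, and the 7 filled points are all below 0.

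In the alpha ring of the 20S core, the CCL6 mean was lower in 5 of 7 genes above background, with a median log2 difference of -0.27. In 3 of the 7 the groups did not overlap, with CCL6 lower, as in 3.97% of the probe sets above background. With so few genes this count is a description. Psma3 had the largest negative difference. It read 12.36, 12.43 and 12.75 in CCL6 cells and 13.37, 13.08 and 12.68 in unstimulated cells. Unstimulated replicate 3 fell below CCL6 replicate 3, so the groups overlapped. Psma3 averaged 12.51 ± 0.21 in CCL6 cells and 13.04 ± 0.35 in unstimulated cells (SD, n = 3 each), a log2 difference of -0.53 (SE 0.27, limma unadjusted p = 0.0788, adjusted p = 0.999).

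Psma1, Psma2 and Psma5, which also form the alpha ring, had no overlap between groups, though for Psma1 this was lost after a further quantile normalization. The log2 differences were -0.20 (SE 0.22) for Psma1, -0.36 (SE 0.23) for Psma2 and -0.27 (SE 0.23) for Psma5. For Psma2 the CCL6 arrays read 12.90, 12.91 and 13.16 and the unstimulated arrays 13.45, 13.19 and 13.41. The gap between the closest arrays of the groups was thus narrow even where no overlap was seen. Psma7 differed by -0.30 (SE 0.25) and Psma6 by 0.05 (SE 0.23).

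Psma4 was the alpha subunit above background with the largest positive difference and had the widest range of all members over the 6 arrays, 1.56. It read 13.04, 13.59 and 13.71 in CCL6 cells and 13.87, 13.80 and 12.31 in unstimulated cells. A single array, unstimulated replicate 3, stood far below the other 5. The log2 difference was 0.12 (SE 0.43) and became -0.39 without that array. The other alpha genes did not share this low reading to the same extent, as the map of deviations by array shows.

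**Figure D2:**
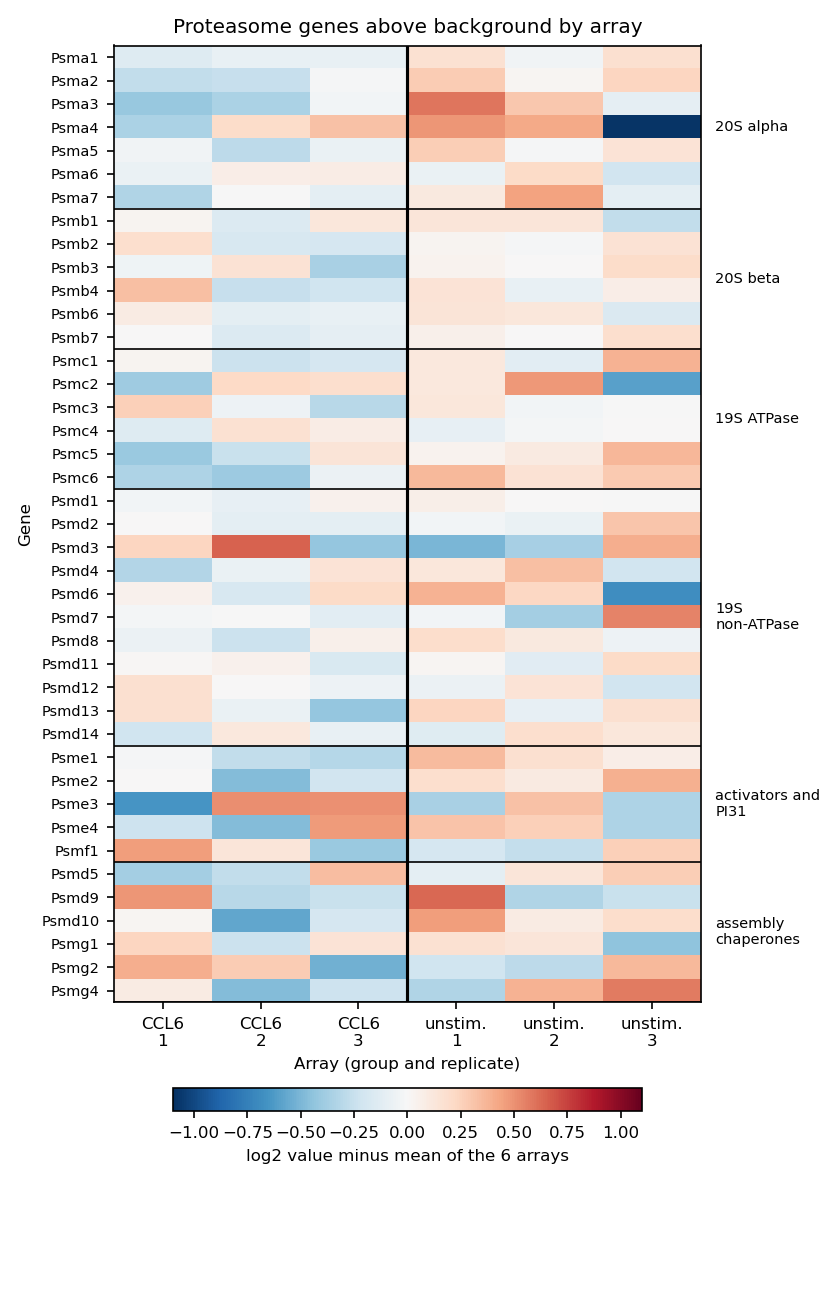
Log2 value minus the mean of the 6 arrays for each proteasome gene above background, by role, with the 3 CCL6 arrays left of the 3 unstimulated arrays; red is above the gene's mean and blue below. Psma4, Psmc2 and Psmd6 are low and Psmd3, Psmd7 and Psmg4 high in unstimulated replicate 3.

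Among the beta subunits, the CCL6 mean was lower in 5 of 6 genes above background, but all 6 differed by less than 0.2, the median log2 difference was -0.11, and 0 of 6 had groups without overlap. Psmb6 and Psmb7 encode catalytic subunits, which cut after acidic and after basic residues. Psmb6 read 13.69, 13.50 and 13.53 in CCL6 cells and 13.75, 13.73 and 13.44 in unstimulated cells. Its log2 difference was -0.07 (SE 0.23, 95% interval -0.59 to 0.45), and it ran from -0.17 without unstimulated replicate 3 to -0.014 without unstimulated replicate 1. Psmb7 had the largest negative difference of the beta genes, with 14.36, 14.21 and 14.25 in CCL6 cells and 14.41, 14.36 and 14.54 in unstimulated cells. CCL6 replicate 1 and unstimulated replicate 2 read alike, so the groups met at their edges. The log2 difference of Psmb7 was -0.17 (SE 0.22, 95% interval -0.66 to 0.33). Neither interval reached a 2-fold change.

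Psmb1, a structural beta subunit, had the largest positive difference of the beta genes above background, and this was close to 0. Its values were 15.17, 14.99 and 15.26 in CCL6 cells and 15.27, 15.27 and 14.87 in unstimulated cells. The log2 difference of 0.0054 (SE 0.24) had the opposite sign after a further quantile normalization (-0.028) and after cyclic loess (-0.010). Psmb2, Psmb3 and Psmb4, also structural, differed by -0.12 (SE 0.23), -0.16 (SE 0.24) and -0.10 (SE 0.25).

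In the ATPase ring of the 19S cap, which unfolds substrates and opens the barrel, the CCL6 mean was lower in 4 of 6 genes, with a median log2 difference of -0.16. Psmc6 carried the largest difference of all members. It read 12.40, 12.33 and 12.67 in CCL6 cells and 13.09, 12.89 and 13.02 in unstimulated cells, without overlap. The SD of Psmc6 was 0.18 over the CCL6 arrays and 0.10 over the unstimulated arrays (n = 3 each), and its log2 difference was -0.53 (SE 0.23), or 1.45-fold. The unadjusted limma p was 0.0451 and the adjusted p 0.999. Leaving out any 1 array kept the log2 difference of Psmc6 between -0.64 and -0.47.

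Psmc5 differed by -0.34 (SE 0.25) and Psmc1 by -0.25 (SE 0.24). Psmc4 had the largest positive difference of the ring, 0.07 (SE 0.22), with 13.22, 13.53 and 13.45 in CCL6 cells and 13.27, 13.34 and 13.37 in unstimulated cells. The unstimulated arrays of Psmc4 fell inside the range of the CCL6 arrays, and its difference was 0.0040 when CCL6 replicate 2 was left out and 0.16 when CCL6 replicate 1 was. Psmc2 differed by 0.01 (SE 0.33) and Psmc3 by -0.07 (SE 0.24), and for Psmc2 unstimulated replicate 3 was the lowest array at 14.08.

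Non-ATPase subunits of the cap, which bind and cut ubiquitin chains and hold the cap together, had a lower CCL6 mean in 8 of 11 genes, with a median log2 difference of -0.09. Of these 11 genes, 9 differed by less than 0.2, and 0 had groups without overlap. Psmd14, the deubiquitinase of the lid, differed by -0.12 (SE 0.23). The ubiquitin receptor Psmd4 differed by -0.16 (SE 0.26) and the scaffold subunits Psmd1 and Psmd2 by -0.04 (SE 0.22) and -0.14 (SE 0.23). Psmd13, a lid subunit, had the largest negative difference. It read 14.73, 14.49 and 14.13 in CCL6 cells and 14.80, 14.47 and 14.73 in unstimulated cells, a log2 difference of -0.22 (SE 0.25), which was -0.06 without CCL6 replicate 3. CCL6 replicate 3 was thus the low array, and the other CCL6 arrays lay among the unstimulated ones.

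Psmd3, another lid subunit, had the largest positive difference of the members above background. Its arrays read 13.38, 13.79 and 12.72 in CCL6 cells and 12.65, 12.78 and 13.55 in unstimulated cells. CCL6 replicates 1 and 2 and unstimulated replicate 3 were high and the other 3 arrays low, the same arrays as for the proliferation genes, and the part of proliferation in this result was not tested. The log2 difference of Psmd3 was 0.31 (SE 0.36, limma unadjusted p = 0.413), and leaving out 1 array moved it between 0.06 (without CCL6 replicate 2) and 0.59 (without CCL6 replicate 3). The lid subunit Psmd7 differed by -0.09 (SE 0.28) and had its highest array in unstimulated replicate 3 at 15.55, while Psmd6, at 0.05 (SE 0.32), had its lowest there at 11.29. The range of log2 differences in Psmd8, Psmd11 and Psmd12 was from -0.16 to 0.09.

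**Figure D3:**
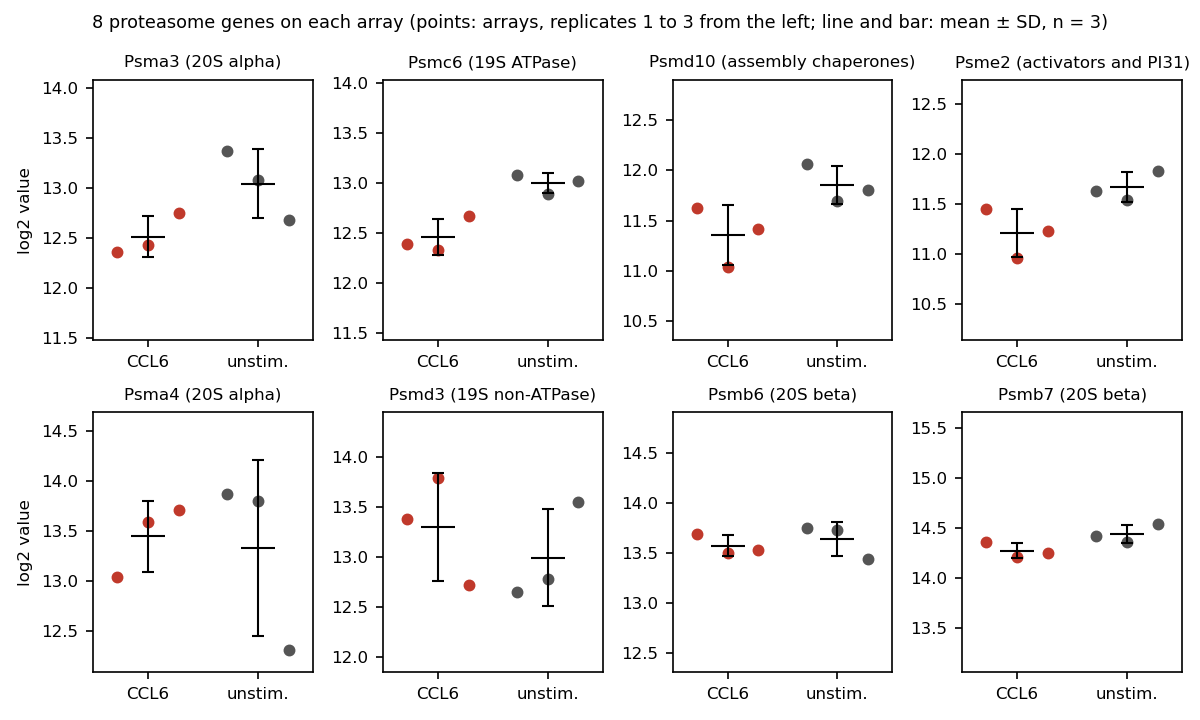
Log2 values on each array for 8 proteasome genes, CCL6 left of unstimulated, with the mean and SD of 3 arrays and axes of equal length in every panel. Psmc6, Psmd10 and Psme2 are lower on every CCL6 array than on any unstimulated array, Psmb6 and Psmb7 hardly differ, and Psma4 and Psmd3 spread widely within groups.

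Among the activators, Psme1 and Psme2 encode the partner subunits of the regulator that interferon gamma induces for antigen processing. Both were lower in CCL6 cells without overlap. Psme1 read 14.77, 14.51 and 14.47 in CCL6 cells and 15.13, 14.96 and 14.86 in unstimulated cells, a log2 difference of -0.40 (SE 0.23, limma unadjusted p = 0.118). Psme2 read 11.45, 10.97 and 11.23 in CCL6 cells and 11.63, 11.54 and 11.83 in unstimulated cells, a log2 difference of -0.46 (SE 0.24, limma unadjusted p = 0.0930). The adjusted p was 0.999 for each gene.

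Psme3, the nuclear relative of these activators, went the other way. Its arrays read 12.68, 13.84 and 13.83 in CCL6 cells and 12.97, 13.65 and 12.98 in unstimulated cells. The log2 difference was 0.25 (SE 0.37), the groups overlapped, and CCL6 replicate 1 was the lowest array of all. Without that array the difference was 0.63, without CCL6 replicate 2 it was 0.05, and without both arrays numbered 3 it was -0.05. Psme4, an activator known for its role in spermatogenesis and DNA repair, differed by -0.16 (SE 0.32), and Psmf1, the regulator known as PI31, by 0.12 (SE 0.30).

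Assembly chaperones had a lower CCL6 mean in 4 of 6 genes above background, with a median log2 difference of -0.12. Psmd10, or gankyrin, is a chaperone of the ATPase ring and is known as an oncoprotein of the liver. It read 11.62, 11.03 and 11.42 in CCL6 cells and 12.06, 11.69 and 11.80 in unstimulated cells, without overlap, and its log2 difference was -0.49 (SE 0.26, limma unadjusted p = 0.0862). The other chaperones of that ring differed less, Psmd5 by -0.20 (SE 0.27) and Psmd9 by -0.04 (SE 0.35). Psmg1 and Psmg2 encode partners in building the alpha ring. Psmg1 had 10.90, 10.43 and 10.82 in CCL6 cells and 10.83, 10.80 and 10.22 in unstimulated cells, a log2 difference of 0.10 (SE 0.27) that was -0.10 without unstimulated replicate 3. Psmg2 differed by 0.10 (SE 0.32) and Psmg4 by -0.41 (SE 0.30), with overlap between groups in both cases.

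Read by array rather than by group, the shift over the 41 genes did not rest on 1 array. In CCL6 replicates 1, 2 and 3, 20, 12 and 14 of the 41 genes lay above their own mean over the 6 arrays, and in unstimulated replicates 1, 2 and 3 these numbers were 29, 26 and 24. Over the probe sets above background the shares were 54.2%, 49.3% and 51.4% in the CCL6 arrays and 47.8%, 50.9% and 51.5% in the unstimulated arrays. The 3 unstimulated arrays therefore each held more of the genes above their mean than any CCL6 array did. The alpha ring alone was less even. The median deviation of its genes from their own mean was -0.27, -0.09 and -0.03 in CCL6 replicates 1 to 3. In unstimulated replicates 1 to 3 it was 0.27, 0.21 and -0.10. Proliferation genes had a different order, with 16, 16 and 0 of 16 above their mean in CCL6 replicates 1, 2 and 3 and 0, 1 and 16 in unstimulated replicates 1, 2 and 3. Single proteasome genes also split by these arrays. CCL6 replicates 1 and 2 and unstimulated replicate 3 all lay above the other arrays for Psmd3, Psmd7, Psmf1 and Psmg2. The same arrays all lay below the others for Psma3, Psma4, Psmb1, Psmd1, Psmd4, Psmd6, Psmd8 and Psme4. The share of all probe sets that split in this way was not counted, so these names are a description. The part of proliferation in these genes was not tested. Leaving out 1 array kept the number of lower proteasome genes between 28 and 33 of 41, and it was 30 without both arrays numbered 3. The median difference of the activator and assembly genes was the least steady, at -0.017 when CCL6 replicate 2 was left out, -0.040 when unstimulated replicate 1 was, and -0.34 when CCL6 replicate 3 was. That of the 20S core was -0.058 without CCL6 replicate 3, and that of all 41 genes was -0.080 there.

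Proteasome genes varied little between replicates. The median SD within a group was 0.21 over the 41 genes and 0.38 over the probe sets above background, and the median range over the 6 arrays was 0.66 and 0.99. By role the median SD was 0.16 in the 20S core, 0.20 in the 19S cap and 0.37 in the activators and assembly factors. Brightness was not held equal in these comparisons, and its part was not tested.

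Promoter sequences were examined for motifs that the choice of members did not use. RefSeq windows of 300 bases (250 before and 50 after the start, GRCm38.p6) were found for 36 of the 44 genes, on 39 promoters. The letters TGACNNNGC, the core of the antioxidant response element to which NFE2L1 and NFE2L2 bind, were found on either strand in 5 of these promoters (12.8%) and in 12.4% of 32851 windows over all genes. They belonged to Psmb6, Psmc6, Psmd9, Psmd12 and Psme4. CCAAT, the box bound by NF-Y, was in 33.3% of the promoters and 37.4% of all windows. The GC box GGGCGG was in 59.0% of the promoters and 35.7% of all windows. TGACNNNGC shared bases with GGGCGG in 1 promoter and with CCAAT in 0. A match is a run of letters and not a site shown to be bound. The promoters of Psmc6, with the largest difference of all members, and of the catalytic gene Psmb6 are shown with TGACNNNGC in capitals. In Psmc6 (chr14:45329574-45329873, plus strand) the match is on the other strand and begins at position -227, and in Psmb6 (chr11:70525107-70525406, plus strand) it begins at -9.
Psmc6: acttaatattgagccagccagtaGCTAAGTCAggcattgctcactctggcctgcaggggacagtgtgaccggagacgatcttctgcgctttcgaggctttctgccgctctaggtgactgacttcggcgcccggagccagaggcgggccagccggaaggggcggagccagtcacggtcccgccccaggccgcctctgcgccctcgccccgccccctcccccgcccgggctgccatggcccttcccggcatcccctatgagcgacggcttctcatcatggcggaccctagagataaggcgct
Psmb6: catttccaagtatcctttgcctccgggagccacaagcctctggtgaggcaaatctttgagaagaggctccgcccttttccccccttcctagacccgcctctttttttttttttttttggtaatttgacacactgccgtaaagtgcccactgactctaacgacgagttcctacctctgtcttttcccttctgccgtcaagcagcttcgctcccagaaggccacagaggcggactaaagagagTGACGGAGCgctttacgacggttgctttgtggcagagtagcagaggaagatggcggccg

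All 7 genes without overlap between groups had a window, and GGGCGG was found in 6 of them, the exception being Psma5. Among all members with a window it was found in 22 of 36 genes, and it was in 35.7% of all windows. These 7 genes were picked by their values, so this count is a description. The promoters of Psma2 (chr13:14612992-14613291, plus strand), Psme1 (chr14:55578244-55578543, plus strand) and Psmd10 (chrX:140956662-140956961, minus strand), 1 from each of the alpha ring, the activators and the chaperones, are shown with GGGCGG or its complement in capitals.
Psma2: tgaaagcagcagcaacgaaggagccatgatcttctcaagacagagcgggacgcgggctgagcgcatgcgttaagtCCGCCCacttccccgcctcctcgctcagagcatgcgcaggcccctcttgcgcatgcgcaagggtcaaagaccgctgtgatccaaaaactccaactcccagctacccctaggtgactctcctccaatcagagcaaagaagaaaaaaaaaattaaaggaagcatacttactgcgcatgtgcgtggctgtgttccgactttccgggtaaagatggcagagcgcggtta
Psme1: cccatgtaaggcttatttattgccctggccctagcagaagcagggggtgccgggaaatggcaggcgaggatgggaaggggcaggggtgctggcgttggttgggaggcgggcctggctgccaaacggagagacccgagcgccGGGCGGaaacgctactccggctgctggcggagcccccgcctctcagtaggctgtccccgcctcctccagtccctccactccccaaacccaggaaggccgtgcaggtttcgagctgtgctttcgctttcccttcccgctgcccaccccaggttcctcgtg
Psmd10: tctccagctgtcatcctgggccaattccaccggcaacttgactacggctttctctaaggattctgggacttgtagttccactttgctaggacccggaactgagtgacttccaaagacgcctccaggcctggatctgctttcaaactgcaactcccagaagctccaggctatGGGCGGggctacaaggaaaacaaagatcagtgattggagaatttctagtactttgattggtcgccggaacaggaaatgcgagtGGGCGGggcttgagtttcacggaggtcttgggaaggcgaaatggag

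Genes around the proteasome were set beside it. Psmb10, the only immunoproteasome gene above background, encodes the catalytic subunit that replaces Psmb7 under interferon gamma. It read 7.01, 7.05 and 8.59 in CCL6 cells and 9.67, 9.08 and 8.44 in unstimulated cells. CCL6 replicates 1 and 2 were far below all other arrays, whereas CCL6 replicate 3 lay above unstimulated replicate 3. The arrays high in the proliferation genes, CCL6 replicates 1 and 2 and unstimulated replicate 3, thus read below the other arrays. The part of proliferation in this difference was not tested. The log2 difference of Psmb10 was -1.51 (SE 0.48), or 2.85-fold (limma unadjusted p = 0.0120, adjusted p = 0.999). Psmb8 and Psmb9 were not above background.

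The NFE2L1 pathway list held Nfe2l1, the related factors Nfe2l2 and Nfe2l3, and partners and regulators of these factors. Of 15 listed genes 14 were analysed here, and Ddi2 was not. Of 14 genes above background, 8 were higher and 6 lower in CCL6 cells, with a median log2 difference of 0.25, and 4 were higher and 2 lower without overlap, where 3.88% and 3.97% of the probe sets above background were so. Ogt, the transferase that attaches N-acetylglucosamine to proteins, averaged 12.85 ± 0.20 in CCL6 cells and 12.09 ± 0.15 in unstimulated cells (SD, n = 3 each), a log2 difference of 0.75 (SE 0.24, limma unadjusted p = 0.0114). Fbxw7 and Btrc encode substrate receptors of ubiquitin ligases. Fbxw7 differed by 0.88 (SE 0.28, limma unadjusted p = 0.0127) and Btrc by -0.47 (SE 0.24, limma unadjusted p = 0.0848). Fbxw7 was dim, with means of 6.50 in CCL6 cells and 5.62 in unstimulated cells, not far above the background level of 4.85. The adjusted p was 0.999 for the 3 genes. Nfe2l1 itself, named after its values were seen, read 15.21, 15.17 and 15.56 in CCL6 cells and 15.01, 15.15 and 14.94 in unstimulated cells. The groups did not overlap, though CCL6 replicate 2 and unstimulated replicate 2 lay close together, and the log2 difference of Nfe2l1 was 0.28 (SE 0.23).

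Subunits and partners with other symbols were divided, 6 lower and 7 higher of 13, with a median log2 difference of 0.06. The deubiquitinase gene Usp14 differed by 0.45 (SE 0.27), the ligase gene Ube3c by 0.37 (SE 0.27) and the thioredoxin-like Txnl1 by -0.47 (SE 0.28), the last without overlap. Shuttle factors and the VCP segregase, which bring substrates to the proteasome, were lower in 4 and higher in 6 of 10 genes at a median log2 difference of 0.03, with Ubqln2 at -0.28 (SE 0.29), Ufd1 at 0.23 (SE 0.25) and Ubqln4 at 0.14 (SE 0.26). Ubiquitin-conjugating enzymes were lower in 5 and higher in 7 of 12, at a median of 0.11. Ube2b, which acts in DNA damage tolerance, had the largest difference there, -0.70 (SE 0.31, limma unadjusted p = 0.0502), and Ube2s and Ube2k were at -0.31 (SE 0.33) and 0.30 (SE 0.27). Of 6 listed ubiquitin and activating enzyme genes only Uba6 was analysed here, at 0.38 (SE 0.29).

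The CCT chaperonin, another constitutive ring complex, served as a comparison. Its CCL6 mean was lower in 6 of 7 genes, with a median log2 difference of -0.08 and 0 of 7 without overlap. Cct7 differed by -0.56 (SE 0.55), Cct2 by -0.16 (SE 0.25) and Cct5 by -0.13 (SE 0.22). The proliferation genes were lower in 3 of 16 and higher in 13, with a median of 0.28, and included Mcm2 at 0.76 (SE 0.62), Mcm6 at 0.62 (SE 0.61) and Pcna at 0.44 (SE 0.31). None of these lists was tested against the proteasome genes.

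**Figure D4:**
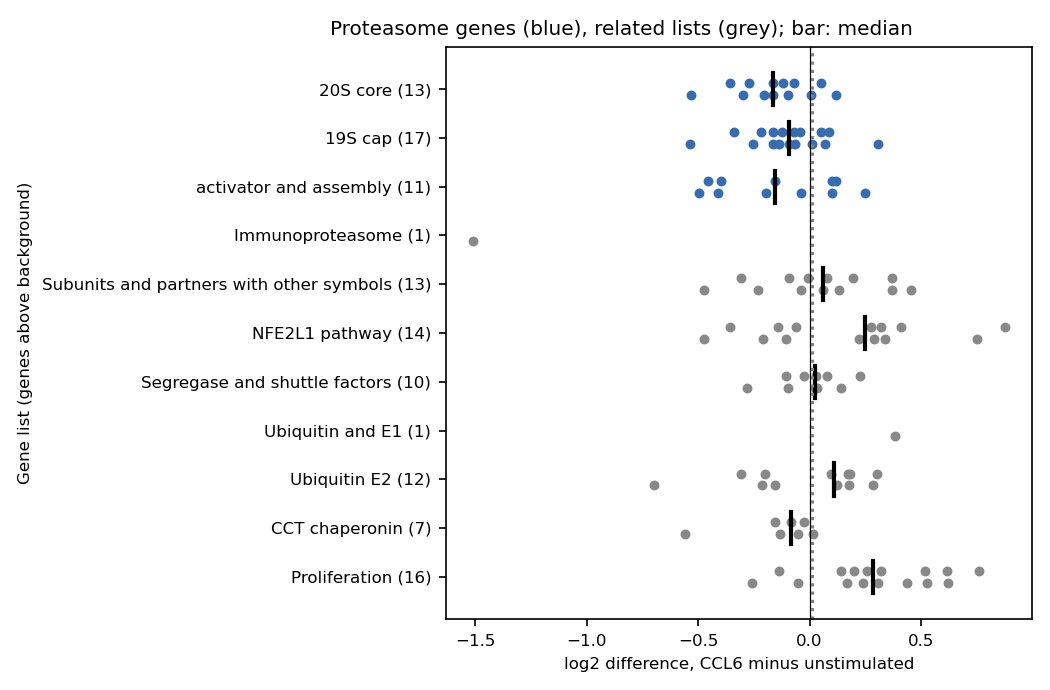
Log2 difference, CCL6 minus unstimulated, of each gene above background in the proteasome groups (blue) and in related lists (grey), with the number of genes in parentheses, a bar at the median of lists with more than 1 gene and a dotted line at the median of all probe sets above background (0.01). The medians of the 3 proteasome groups are -0.16, -0.09 and -0.16, that of the CCT chaperonin is -0.08, and that of the NFE2L1 pathway is 0.25.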

How the data were processed

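RNA from 6 ID8 cultures was hybridised to Clariom S arrays. The authors deposited log2 values from RMA, a routine of background correction, normalization across arrays and probe summary. No version, build or filter was stated in the sources used here, and base 2 was inferred from the range of the values. Since RMA equalises arrays, a shift common to most genes is not visible. The number of arrays limits the precision.

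Symbols came from the platform annotation (19572 probe sets with 1 symbol, 0 with several, 2634 with none). Groups were compared with limma 3.58.1 in R 4.3.3 (lmFit and eBayes, two-sided), adjusting by Benjamini-Hochberg across 22206 probe sets. Lists were described by counts and medians without a test. The members and lists were chosen with earlier results of these data known. Values on every array were given for Psmb6 and Psmb7. They were also given for the largest positive and negative difference per role among genes above background, the smallest p and the widest ranges. Genes not above background were given too, as were some genes without overlap added after their values were seen. Related lists were given with up to 3 genes of smallest p. The code was tested on simulated data. Alternatives covered scaling, filters, variance models, weighted arrays, a replicate block, the methods' t-test and left-out arrays. With 3 arrays per group an exact permutation test cannot give a p below 0.1.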

Additional observations from a re-analysis of the deposited data

How the results depend on the processing

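No setting called a proteasome gene at an adjusted p under 0.05 (0 of 41 under limma, at an adjusted p under 0.1 and with the methods' t-test, with 1 and 3 genes at an unadjusted p under 0.05 in limma and the methods' t-test). The CCL6 mean was lower in 31 genes after repeated quantile normalization and cyclic loess, 29 after median centring and 34 with array weights. Of the probe sets above background, 50.01%, 50.1% and 46.02% were lower after quantile normalization, cyclic loess and median centring. That share was not counted with array weights. After quantile normalization, cyclic loess and median centring, 6, 7 and 7 genes had no overlap, all with CCL6 lower. This was so in 4.17%, 4.25% and 3.53% of the probe sets above background. The median over all members was -0.13, -0.14 and -0.10 under these 3 scalings. Leaving out 1 array in turn gave medians from -0.17 to -0.080 for all members, -0.21 to -0.058 for the 20S core, -0.11 to -0.080 for the 19S cap and -0.34 to -0.017 for activators and assembly factors. Single genes turned sign, and not only those near 0, since Psme3 was at 0.25 in the main fit. With array weights Psma4 became -0.12, Psmb1 -0.081 and Psmg1 -0.032. After quantile normalization Psmb1 became -0.028 and after cyclic loess -0.010. Without both arrays numbered 3, Psma4 became -0.52, Psmb1 -0.19, Psme3 -0.052 and Psmg1 -0.15. Leaving out 1 array gave -0.39 to 0.39 for Psma4, -0.13 to 0.080 for Psmb1 and -0.098 to 0.24 for Psmg1. The cause was not tested. Deviations of same-numbered arrays correlated at -0.08, -0.23 and -0.66, so no shared deviation by replicate number was seen. Whether same-numbered samples were prepared together cannot be told from these correlations. With the replicate block 0 members were called, the median of all members was -0.12 and 29 genes were lower. Counts of lower genes under alternatives were added after the data were seen.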
